A study of Pinctada fucata with 15 samples.

Results

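Of the 300 probes designed from GenBank records on an array for the pearl oyster Pinctada fucata, 123 gave their highest signal in juveniles. They were chosen from the measured values themselves. For each probe the log2 signal of its 3 spots was averaged, the log2 of the array's 75th percentile was subtracted, and the 3 arrays of each stage were averaged. A probe was kept where juveniles had the highest of the 5 means and every spot was well above background, by the scanner software's own flag, on all 3 juvenile arrays. The other 177 GenBank-designed probes comprised 176 whose highest mean lay in an earlier stage (63 in fertilized eggs, 32 in the trochophore stage, 35 in the D-shaped stage and 46 in the umbonal stage) and 1, AB353113.1, that was highest in juveniles but well above background on only 2 of 3 juvenile arrays. The array as a whole carried 58883 probes, most of them designed from assembled unigene sequences. The files identify the GenBank-designed probes by accession and give no gene names, so the probes are called here by accession and no role is given for them.

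Total RNA of pools taken as fertilized eggs at 0 h, at the trochophore stage at 17 h, at the D-shaped stage at 48 h, at the umbonal stage at 14 d and as juveniles at 35 d was hybridized to single-colour Cy3 arrays, 3 pools per stage and 15 arrays in all. The animals came from normal culture of fertilized gametes with no treatment, and all 5 stages share that origin. Each pool held many whole animals, collected when most but not all of them had reached the stage, so that tissues such as the mantle were measured together with the rest of the body. The pools are described as biological replicates, but nothing says that they came from separate spawnings, and p-values measure the spread between these pools.

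The shell of a bivalve is laid down by the mantle, whose epithelium secretes matrix proteins that direct the growth of calcium carbonate. Larvae build the thin prodissoconch shell, first under the shell field of the trochophore and D-shaped larva and then at the growing edge of the umbonal larva. After settlement the juvenile builds the dissoconch shell, with a calcitic prismatic layer and an aragonitic nacreous layer as in the adult, and the mantle grows with it. In whole-animal RNA a higher signal can come from more cells of a type or from more RNA per cell, and the 2 cannot be told apart.

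The arrays lay on 2 slides, one with 8 arrays (fertilized eggs, trochophore stage and D-shaped replicates 1 and 2) and one with 7 (D-shaped replicate 3, umbonal stage and juveniles), and the scans fell in the same way. Slide and stage can therefore be separated only within the D-shaped stage, and juveniles shared a slide with umbonal larvae but not with eggs or trochophores. The share of spots well above background ran between 53.3% and 91.3% of an array, lowest in egg replicate 1. On the slide of the juveniles it was 80.9% or more. Within the D-shaped stage, 103 of the 123 probes were well above background on replicate 3, against 86 and 82 on replicates 1 and 2. No spot was saturated. Levels below are quantile-normalized log2 signals, and levels of different probes are not set against each other.

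One array stood apart for these probes. Fertilized egg replicate 3 was more than 1 log2 unit above both other egg arrays for 39 of the 123 probes, against 10 of the 177 other GenBank-designed probes and 2.09% of all probes. The corresponding count was 3 for egg replicate 1 and 1 for egg replicate 2, and over the other 14 arrays of the study it ran between 0 and 10. The highest count among those, 10, was that of D-shaped replicate 3. Egg replicate 3 also had 77 of the probes well above background, against 32 on replicate 1 and 50 on replicate 2, and for 27 probes it was the only egg array on which they were. The same 39 probes had juvenile means 1.71 to 8.15 log2 units above egg replicate 3, with a median of 6.39, and in 38 of them all 3 juvenile arrays lay above every earlier array. On the 75th-percentile scale the count was 40. Among 30 unigene probes for shell genes that the study listed, egg replicate 3 stood that far above in 4 and egg replicate 1 in 5 on the quantile scale. On the 75th-percentile scale these counts were 5 for egg replicate 3 and 2 for egg replicate 1. Why egg replicate 3 differs was not tested. Counts that rest on eggs, and the changes of named probes between trochophores and eggs where that array moved them, are given with and without it.

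**Figure D1:**
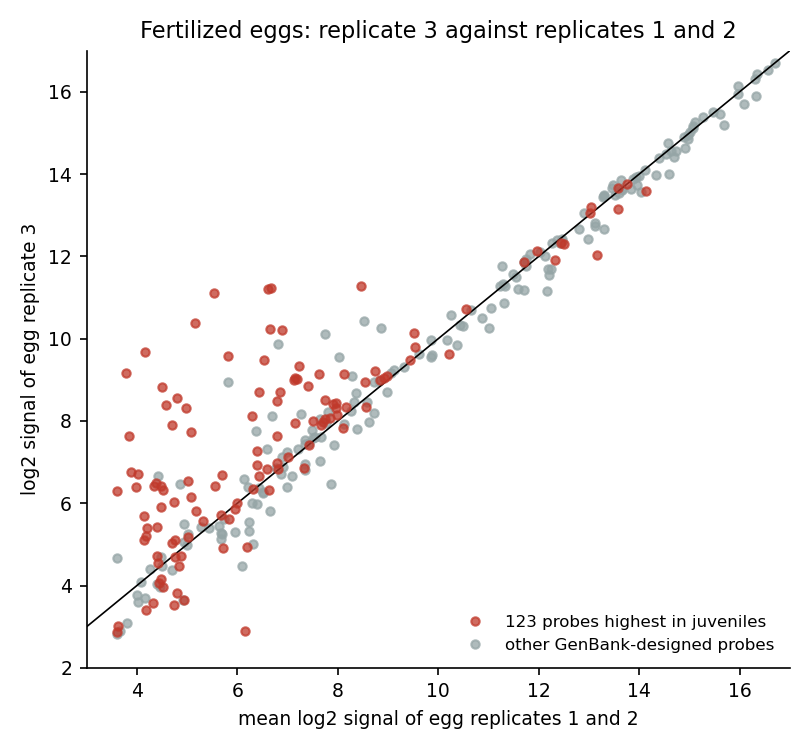
Each point is 1 GenBank-designed probe, with the mean quantile-normalized log2 signal of egg replicates 1 and 2 on the horizontal axis and that of egg replicate 3 on the vertical axis; the line marks equality. Red points, the 123 probes highest in juveniles, lie above the line more often than grey points, the other 177, at the dim end, and 39 of them exceed both other egg arrays by more than 1 log2 unit.

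The 123 probes ranged from a hairline excess in juveniles to a difference of over 9 log2 units. The margin, the juvenile mean minus the next-highest stage mean on the scale used to choose the probes, had a median of 2.78 and ran between 0.0035 and 9.28. It was at least 6 in 23 probes, at least 1 in 82, under 1 in 41 and under 0.1 in 11. These margins chose the probes and are given without a test. The next-highest stage was the umbonal stage for 53 probes, the trochophore stage for 25, fertilized eggs for 24 and the D-shaped stage for 21. Median margins were 1.33, 4.38, 3.98 and 0.90 in the same order. Without egg replicate 3 eggs were next highest for 24 probes as well. By the same rule on the quantile scale 118 of the 123 were chosen again.

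**Figure D2:**
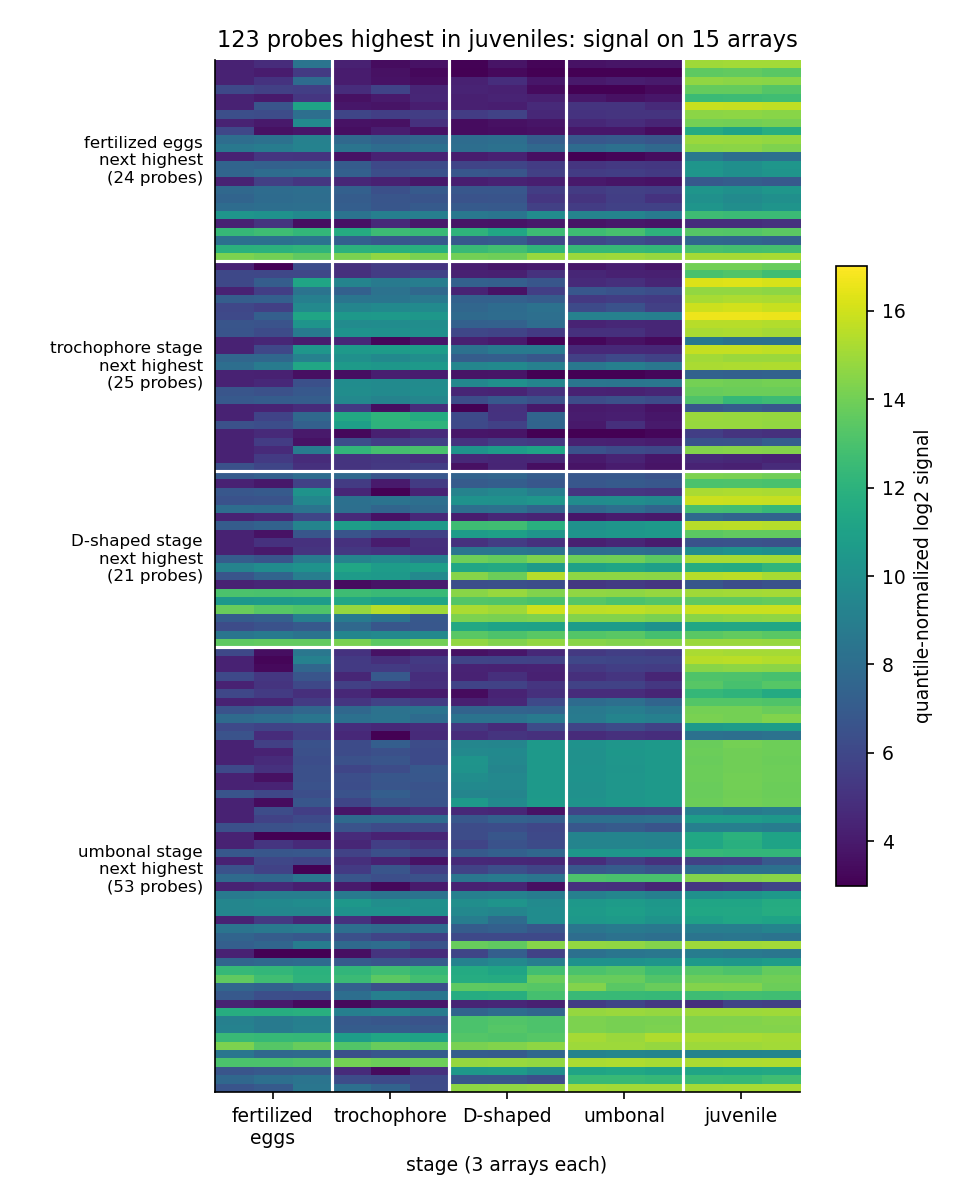
Quantile-normalized log2 signal (colour) of the 123 probes in rows on the 15 arrays in columns, stages in developmental order, 3 arrays each. Rows are grouped by the next-highest stage (24, 25, 21 and 53 probes) and ordered within a group from the largest margin to the smallest; the last of the egg columns, brighter in several rows, is egg replicate 3.

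The threshold of the rule cut through probes of nearly equal juvenile and larval signal. Just inside it were AF378128.1 with a margin of 0.0035, AB735592.1 with 0.013, AB735600.1 with 0.026, FJ775601.1 with 0.034 and JU319548.1 with 0.038. Just outside were JU319529.1, whose juvenile mean lay below its umbonal mean with a margin of -0.028, AB735587.1 with -0.028, AB600273.1 with -0.031, EU075160.1 with -0.052 and JQ734542.1 with -0.078. AF378128.1 had 14.89, 14.89 and 14.85 in juveniles, against 14.51, 14.37 and 14.48 in umbonal larvae, and 14.75, 14.37 and 14.72 in D-shaped larvae. Its juvenile arrays lay just above all others on the quantile scale. On the quantile scale 22 further probes met the rule and 5 of the 123 did not.

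Against umbonal larvae, the stage before, the juvenile mean was at least 2-fold higher in 85 of the 123 probes and at least 16-fold higher in 53. Over all 51539 probes well above background on the juvenile arrays, 14.5% were at least 2-fold higher. The juvenile contrasts chose the probes, and these counts are a description. The log2 difference of the means had a median of 3.53 and ran between -0.15 and 11.59, against a median of -0.09 over all those probes. Against fertilized eggs 114 probes were at least 2-fold higher, where 33.3% of the 51539 probes were, and without egg replicate 3 the count was 112. The median differences of the measured signals were 5.67 against eggs (5.83 without egg replicate 3), 4.99 against trochophores and 3.82 against D-shaped larvae. No array was well above background for 46 of the probes in eggs, 51 in trochophores and 20 in D-shaped larvae, and with these at their lower limits, or at 0 where no fold could be given, the medians were at least 5.25, 4.85 and 3.74. Against umbonal larvae the median so taken was at least 3.44. In 103 probes all 3 juvenile arrays lay above all 12 earlier arrays, which was so for 13.7% of the 51539 probes. Without egg replicate 3 the count was again 103.

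For these probes, chosen to be highest in juveniles, the juvenile arrays agreed closely. The median SD of a probe over the 3 arrays was 0.09 log2 units in juveniles, 0.15 in umbonal larvae, 0.31 in D-shaped larvae, 0.32 in trochophores and 0.54 in eggs. These SDs stand at unlike signal levels. The median level of the probes was 13.54 in juveniles and 7.75, 7.25, 6.74 and 6.82 in the earlier stages in the same order. Whether the SDs follow the level or the pools was not tested. The median SD among the 3 spots of a probe on a juvenile array was 0.044.

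The 10 probes with the largest margins were bright in juveniles and dim on nearly every earlier array. AB734776.1 had juvenile signals of 15.03, 15.05 and 15.07 and umbonal signals of 3.70, 3.80 and 3.77, none of the umbonal arrays being well above background. Its D-shaped signals were 3.10, 3.73 and 3.19 and its trochophore signals 4.27, 3.46 and 3.67. In eggs it had 4.36, 4.79 and 8.39. The 4.36 of egg replicate 1 recurs unchanged for other probes named below, such as AB254133.1 and AF516712.1, which were not well above background there either. It is a shared low value and not a measured level. The juvenile arrays lay far above all others, and egg replicate 3 was the only earlier array on which the probe was well above background. Where a stage has no array well above background, its level is only an upper limit, and the fold is taken against the lowest signal of any probe that was well above background on those arrays, or the probe's own signal where that was higher. On that footing AB734776.1 was at least 1939-fold higher in juveniles than in umbonal larvae.

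AB254133.1 was not well above background on any of the 12 earlier arrays. It had 13.55, 13.62 and 13.44 in juveniles, against 2.80, 2.78 and 2.84 in umbonal larvae, 2.84, 3.33 and 2.88 in D-shaped larvae, 4.08, 3.63 and 3.32 in trochophores and 4.36, 4.04 and 5.39 in eggs. Its signal was at least 688-fold higher in juveniles than in umbonal larvae and at least 110.1-fold higher than in eggs, and the groups were far apart. EU177510.1 was likewise at least 696-fold higher than in umbonal larvae, and DQ112679.1 at least 345-fold. Both were without an earlier array well above background.

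In the other 6 of the 10, at least 1 umbonal array was well above background. EU177511.1 had 15.83, 15.78 and 15.68 in juveniles, against 5.10, 5.10 and 4.68 in umbonal larvae, 2 of which were well above background. The measured fold was 1786. Its egg values were 4.36, the shared low value, 6.70 and 11.12. Only replicate 3 was well above background, so that it alone carried the egg signal of EU177511.1. DQ114790.1, EU921665.1 and AB159512.1 were well above background on all 3 umbonal arrays and were 836-fold, 755-fold and 546-fold higher in juveniles. AB677243.1 and AB244424.1 had 1 such umbonal array each, with folds of 1482 and 1038. All 10 had every juvenile array above all 12 earlier arrays.

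**Figure D3:**
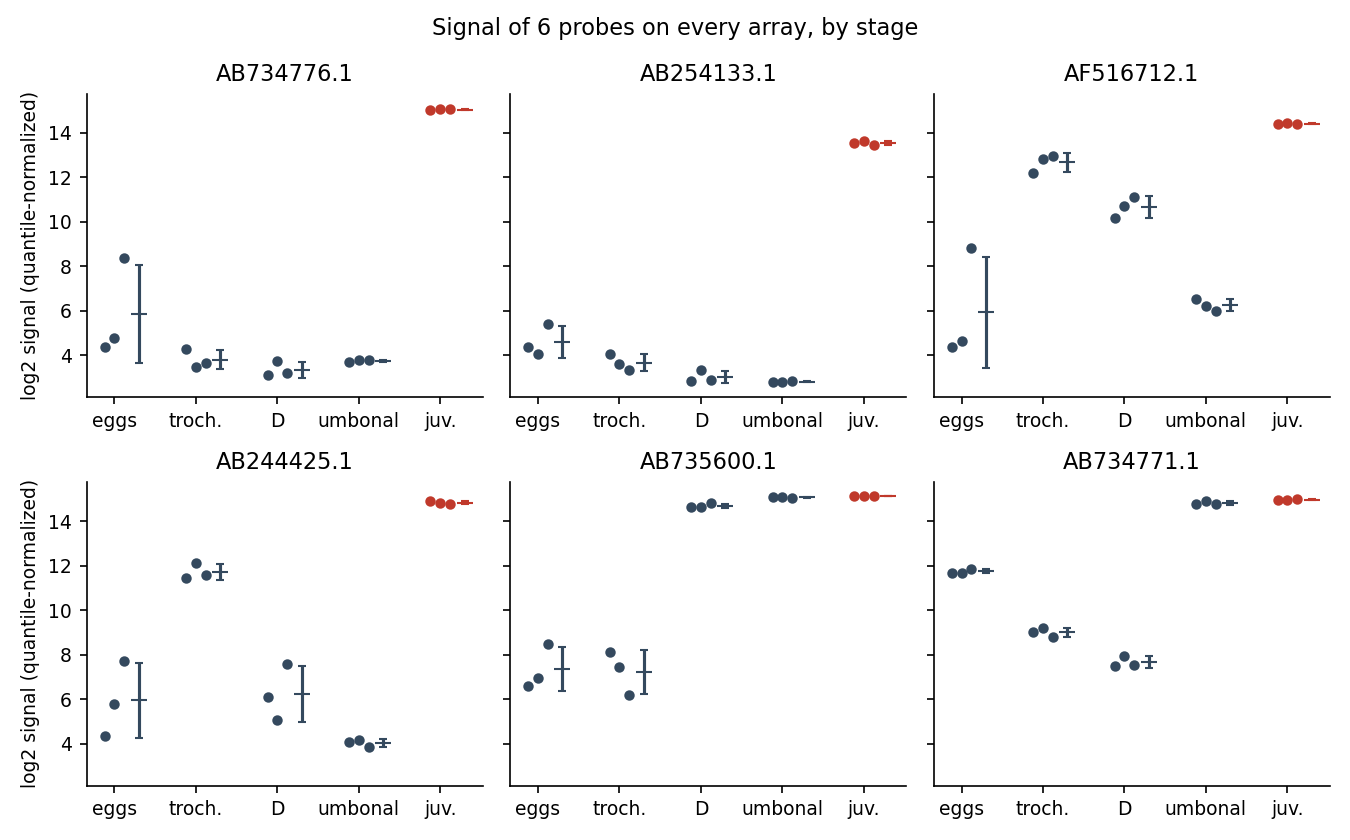
Quantile-normalized log2 signal of 6 probes on every array by stage in developmental order (eggs, trochophore, D-shaped, umbonal, juvenile); points are arrays and the bars beside them the mean ± SD of 3. AB734776.1 and AB254133.1 are far brighter in juveniles than on any earlier array, AF516712.1 and AB244425.1 have an earlier maximum in trochophores, AB735600.1 is close to its juvenile signal since the D-shaped stage, and AB734771.1 only in umbonal larvae.

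The 5 probes with the highest juvenile means, a list set by the naming rule and not a ranking of transcripts, followed different courses. EU177508.1 had 16.64, 16.64 and 16.59 in juveniles, against 9.15, 9.15 and 9.03 in umbonal larvae, a 183-fold difference. It had been well above background on all arrays since the trochophore stage. AB244422.1 had 16.27, 16.32 and 16.17 in juveniles, against 4.69, 4.88 and 4.42 in umbonal larvae, a 3089-fold difference and the largest among the 113 probes with a measured umbonal level. The other 10 had only a lower limit. EU177507.1 and DQ114789.1 were 901-fold and 66.2-fold higher than in umbonal larvae. EF551334.1, by contrast, had 15.87, 15.86 and 15.88 in juveniles, against 15.63, 15.67 and 15.52 in umbonal larvae, and its D-shaped replicate 3 at 15.96 lay above all juvenile arrays.

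Fewer of the 123 probes were well above background on all 3 arrays of an early stage than of other probes. The counts were 32 (26%) in eggs, 51 (41.5%) in trochophores, 81 (65.9%) in D-shaped larvae and 89 (72.4%) in umbonal larvae, and the egg count was 32 without egg replicate 3 too. Of the 157 other GenBank-designed probes that were well above background on all juvenile arrays, 66.9%, 80.3%, 87.3% and 97.5% were so at these stages in the same order. Of the 51259 such unigene probes, 58.9%, 68.2%, 78.4% and 89.9% were. A probe highest in juveniles is by choice dimmer before, so that a lower share follows from the rule and was not tested.

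On no earlier array were 8 of the 123 probes well above background (6.5%), against 1.82% of the unigene probes and none of the other 157 GenBank-designed ones. On all 12 it was 26 (21.1%), against 53.5% and 63.1%. These shares too follow in part from the rule. The 8 had juvenile means between 4.49 and 13.55 and were at least 1.27-fold to at least 696-fold higher than in umbonal larvae. Without egg replicate 3 there were 9. In 7 of the 8 the juvenile arrays lay above all earlier ones, the exception being JU319527.1, named here after its values were seen. The 26 probes detected throughout had a median juvenile to umbonal difference of 0.47, and 6 of them had a margin of at least 1. The remaining 89 had a median difference of 3.58.

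**Figure D4:**
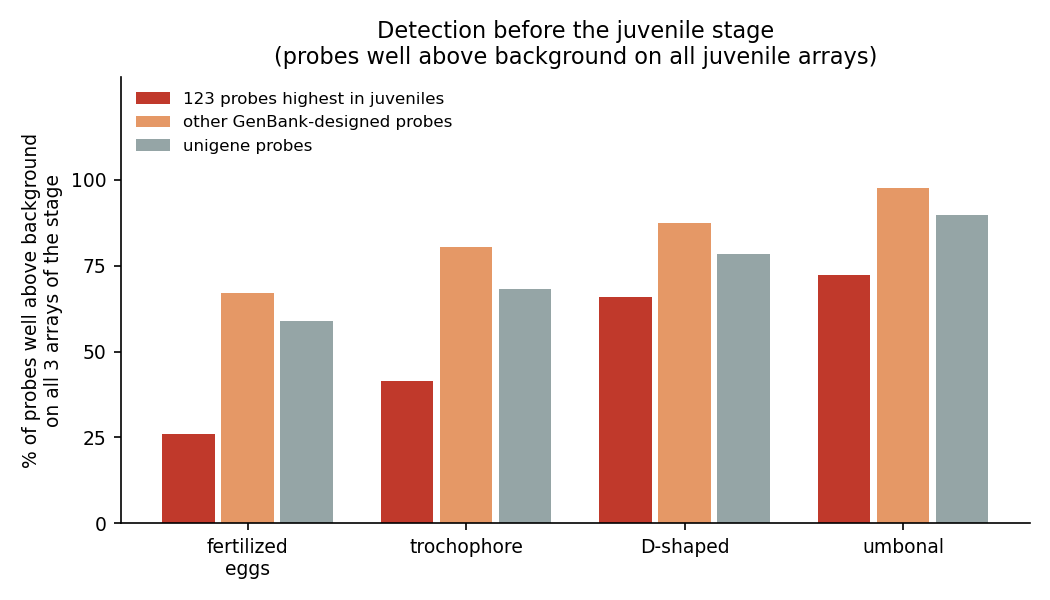
Percentage of probes that the scanner flag put well above background on every array of a stage, for the 4 stages before the juvenile one, for the 123 probes, for 157 other GenBank-designed probes and for 51259 unigene probes, all well above background on the 3 juvenile arrays. The bars of the 123 stand at 26%, 41.5%, 65.9% and 72.4%, under both other sets at each stage.

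The rule places every earlier stage below juveniles but does not say how the earlier stages stand to each other, so those transitions were tested with limma over all probes. Only probes that stood well above background on every array of either stage entered a test. Calls needed a 2-fold change or more and a p, adjusted by Benjamini and Hochberg's method, below 0.05. Of the 123 probes, 96 entered a test for some transition before the juvenile stage and 70 of these were called (72.9%), against 69% of all 48934 probes so tested. The other 27 were tested at none. Of 53 probes tested at all 3, 14 were called at none (26.4%), against 29.2% of all 36367 such probes. Both shares were near those of the whole array.

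Trochophores differed from eggs in 30 of the 57 probes tested, 21 higher (36.8%) and 9 lower (15.8%). Over all 38147 probes tested the shares were 26% and 27%. Of 134 other GenBank-designed probes tested, 37.3% were higher and 16.4% lower. A probe that entered through the trochophore arrays alone, however, was dim in eggs and could hardly be called lower. Of the 26 probes well above background on all 6 arrays, 3 were higher and 4 lower, where 16.5% and 27.8% of all 28429 such probes were. Of 99 such other GenBank-designed probes, 28.3% were higher and 14.1% lower. The excess of higher calls over the whole array was thus shared by the other GenBank-designed probes. Among probes measured at both stages those others kept it, but it was not seen in the 26 probes. Without egg replicate 3 the calls under the wider filter were 25 higher and 8 lower, and without egg replicate 1, 17 and 17. The called log2 changes ran between 1.02 and 6.73 for the higher probes and between 1.04 and 2.73 in size for the lower ones.

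The largest rise in trochophores was that of AF516712.1. It had 12.20, 12.85 and 12.97 in trochophores, against 4.36, 4.66 and 8.82 in eggs, a log2 difference of 6.73 (SE 0.84, limma adjusted p = 8.5e-06). Egg replicate 3 was the only egg array well above background, so that the difference was at least 5.57 without it. It was 5.93 without egg replicate 1. Its signal was again lower in umbonal larvae, at 6.54, 6.21 and 6.0, against 10.17, 10.74 and 11.11 in D-shaped larvae (log2 difference -4.42, SE 0.84, limma adjusted p = 0.00071). In juveniles it reached 14.41, 14.46 and 14.40. The signal thus had an early maximum, a low in umbonal larvae and a second, higher maximum in juveniles, the last being set by the rule.

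AB244425.1 and EU177506.1 followed almost the same course. AB244425.1 had 11.44, 12.12 and 11.60 in trochophores, against 4.36, 5.80 and 7.73 in eggs (log2 difference 5.75, SE 0.70, limma adjusted p = 6.7e-06). It was at least 4.61 without egg replicate 3, the only egg array well above background, and 4.95 without egg replicate 1. EU177506.1 had 10.89, 12.06 and 12.12 in trochophores, against 6.47, 6.32 and 7.27 in eggs (log2 difference 5.00, SE 0.46, limma adjusted p = 4.3e-07), or at least 4.59 without egg replicate 3. In neither did the 2 stages overlap. AB244420.1 was higher in trochophores as well, by 3.76 (SE 1.02, limma adjusted p = 0.0046), by at least 3.56 without egg replicate 3 and by 2.49 without egg replicate 1. The 10.38 of egg replicate 3 nearly equalled its trochophore signals of 10.60, 10.67 and 10.71.

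The 4 probes with the largest falls in trochophores were well above background on all 3 egg arrays. AB734771.1 had 9.02, 9.20 and 8.82 in trochophores, against 11.70, 11.70 and 11.85 in eggs (log2 difference -2.73, SE 0.15, limma adjusted p = 3.3e-09). HQ014601.1, FJ267519.1 and AB205404.1 fell by 2.20, 1.99 and 1.40 on the log2 scale. Without egg replicate 3 the 4 falls were -2.68, -2.16, -1.95 and -1.43.

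D-shaped larvae differed from trochophores in 47 of 86 probes tested, 36 higher (41.9%) and 11 lower (12.8%), where 16.8% and 16.6% of all 42202 probes tested were. Of 138 other GenBank-designed probes tested, 26.1% were higher and 13.8% lower. Here too some probes entered through the D-shaped arrays alone and could hardly be called lower. Of the 46 probes well above background on all 6 arrays, 13 were higher (28.3%) and 6 lower (13%), against 10.6% and 16.9% of all 34175 such probes and 22.4% and 14.4% of 125 other GenBank-designed ones. Within the first slide alone, leaving out D-shaped replicate 3, the counts were 36 and 13. Changes of the 36 higher probes ran between 1.27 and 7.46, with a median of 3.60, and for 12 of them the trochophore level was only an upper limit. Of the 36, 25 were not called at the next transition, 8 were higher again in umbonal larvae and 3 were lower. The 36 included all 8 probes numbered AB295108.1 to AB295115.1 and 7 of those numbered AB735586.1 to AB735602.1. Probes with such neighbouring numbers may share sequence and are not independent of each other.

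AB735600.1 had the largest difference, with 14.64, 14.66 and 14.81 in D-shaped larvae, against 8.13, 7.43 and 6.18 in trochophores (log2 difference 7.46, SE 0.47, limma adjusted p = 2.6e-08). Its umbonal signals of 15.10, 15.08 and 15.06 were already close to the juvenile 15.13, 15.15 and 15.15. AB735589.1 and AB735590.1 were higher in D-shaped larvae by 6.76 (SE 0.30) and 6.44 (SE 0.41). HQ014601.1, one of the probes lower in trochophores, had 13.04, 13.22 and 13.11 in D-shaped larvae, against 6.94, 6.74 and 6.58 in trochophores, and was called higher again in umbonal larvae.

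The 11 lower probes included the pair with the trochophore maximum. AB244425.1 had 6.12, 5.05 and 7.58 in D-shaped larvae, a log2 difference of -5.47 from trochophores (SE 0.70, limma adjusted p = 2.3e-05), and EU177506.1 a difference of -5.25 (SE 0.46, limma adjusted p = 6.2e-07). DQ104257.1 had 4.46, 4.42 and 4.93 in D-shaped larvae, against 9.85, 9.71 and 9.79 in trochophores (log2 difference -5.18, SE 0.16, limma adjusted p = 7.0e-11), and had been higher in trochophores than in eggs by 3.11 (SE 0.16), or at least 2.68 without egg replicate 3. AB689023.1 fell by 4.31 (SE 0.46). In all, 8 of the 57 probes tested at both transitions were called higher in trochophores than in eggs and then lower in D-shaped larvae (14%), against 5.83% of all 36790 probes so tested and 12 of 129 other GenBank-designed probes (9.3%). Whether these shares differ was not tested. A probe could enter both tests through the trochophore arrays alone, and such a probe could hardly be called in the opposite directions. Of the 6 of these named here, none was well above background on all 3 egg arrays, and none was tested against eggs under the stricter filter. Among the same 6, 2 lost a call when a single array was left out. D86073.1 was higher in trochophores by 1.99, but by 1.42 without egg replicate 1 and 1.36 without egg replicate 2, neither of which was called, and by at least 2.72 without egg replicate 3. EU177508.1 was higher by 2.29, by 1.24 and 1.83 without egg replicates 1 and 2, and by 3.81 without replicate 3, the only array of either stage whose removal kept its call. Its fall of 2.52 in D-shaped larvae kept its call only without D-shaped replicate 3. Fitted to the 6 egg and trochophore arrays alone, neither D86073.1 nor EU177508.1 was called higher in trochophores (limma adjusted p = 0.12 and 0.16). Of the 30 unigene probes of named shell genes, 14 were tested in trochophores against eggs, and the same course was called in 3. They were those for a tyrosinase, an enzyme of shell pigmentation and matrix hardening, for PFMG3, a mantle gene, and for shematrin-7, a glycine-rich framework protein of the shell. Of these 3, only shematrin-7 was well above background on all egg and D-shaped arrays. The tyrosinase was so on 1 egg array and PFMG3 on 0. For the tyrosinase the study listed no fold between eggs and trochophores. Values without egg replicate 3 are not given for these 3.

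Umbonal larvae differed from D-shaped larvae in 32 of 92 probes tested, 22 higher (23.9%) and 10 lower (10.9%). Over all 47882 probes tested the shares were 16.2% and 15.7%, and over 155 other GenBank-designed ones 20.6% and 11%. Of the 78 probes well above background on all 6 arrays, 17 were higher and 7 lower (21.8% and 8.97%), against 11.6% and 17.2% of all 40135 such probes. Of 137 such other GenBank-designed probes, 14.6% were higher and 12.4% lower. Within the second slide the D-shaped stage had replicate 3 alone, so that its spread was taken from the other stages and assumed alike, and the counts were 19 and 7. AB734771.1 had 14.77, 14.92 and 14.77 in umbonal larvae, against 7.52, 7.97 and 7.55 in D-shaped larvae (log2 difference 7.14, SE 0.15, limma adjusted p = 9.4e-12). This followed a decline through both earlier transitions, and its juvenile signals of 14.97, 14.98 and 15.01 exceeded the umbonal ones by little. FJ775601.1, FJ763348.1 and DQ104261.1 were higher in umbonal larvae by 5.76 (SE 0.18), 4.48 (SE 0.19) and 3.11 (SE 0.29).

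The 10 probes called lower in umbonal larvae had a dip just before their juvenile maximum. That juveniles lay higher again follows from the rule and is no separate result. AB734775.1 had 5.14, 5.19 and 5.10 in umbonal larvae, against 9.29, 9.51 and 8.92 in D-shaped larvae (log2 difference -4.10, SE 0.70, limma adjusted p = 0.00031), and 15.20, 15.27 and 15.20 in juveniles. AB244420.1 and D86073.1 fell by 3.95 (SE 1.02) and 3.05 (SE 0.69). The call for AB244422.1, a log2 difference of -2.46 with a limma adjusted p of 0.034, held only when D-shaped replicate 3 was the array left out, and its values without 1 of the others ran between -2.57 and -2.35.

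**Figure D5:**
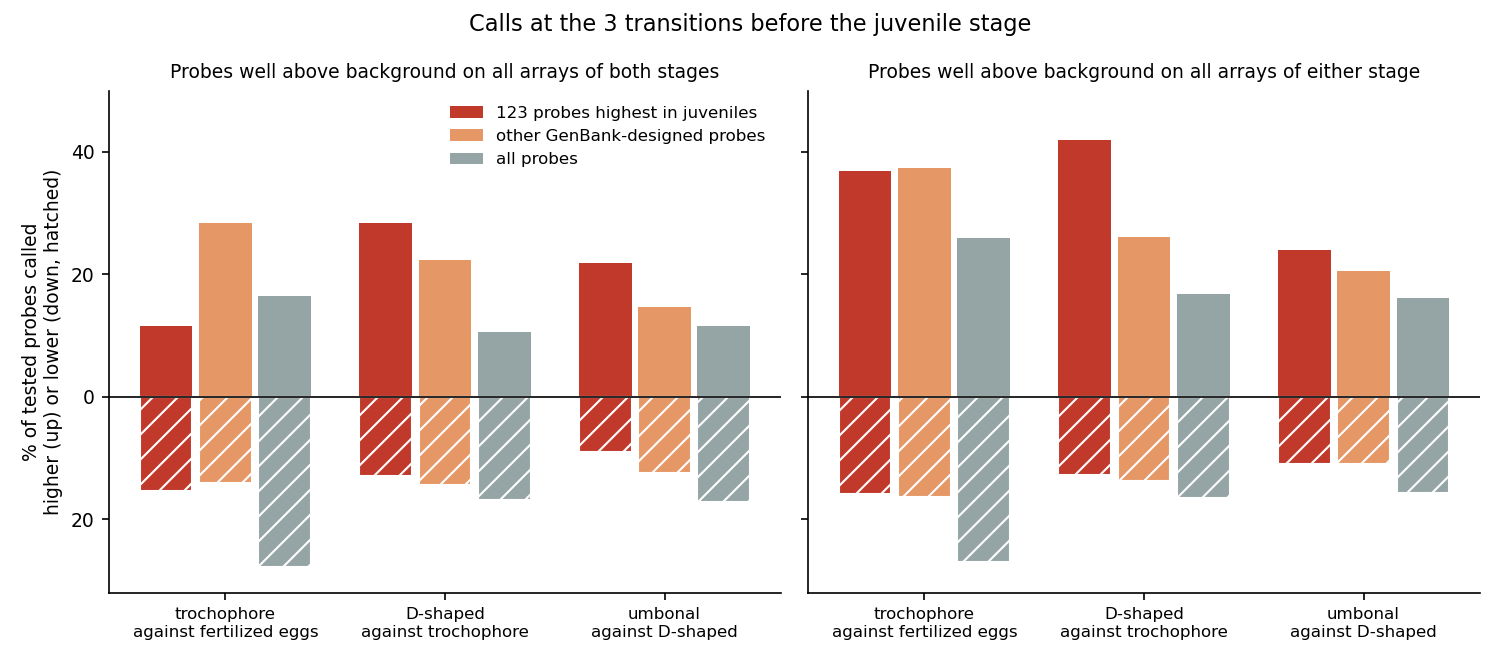
Percentage of tested probes called higher (upward bars) or lower (downward hatched bars) at each of the 3 transitions before the juvenile stage, by limma at an adjusted p under 0.05 and at least 2-fold, for the 123 probes, the other GenBank-designed probes and all probes. On the left are probes well above background on every array of both stages, on the right those so on every array of either; in D-shaped larvae 28.3% of the 123 tested on the left were higher, and 41.9% of those on the right.

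GenBank accessions with consecutive numbers usually come from 1 submission, which gives a grouping of the probes that uses none of their values. Runs of at least 5 consecutive accessions numbered 12 and held 153 of the 300 probes and 67 of the 123. Probes of 1 run may share sequence, and the probe sequences were not used here, so the probes of a run are not independent of each other. The runs differed in how many of their probes were highest in juveniles.

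All 8 probes of the run AB295108.1 to AB295115.1 were highest in juveniles, with stage differences that varied little among them. The 8 had juvenile signals between 13.80 and 14.05 over all arrays, umbonal signals between 10.06 and 10.59, D-shaped signals between 9.37 and 10.60, trochophore signals between 5.92 and 7.20 and egg signals between 3.42 and 6.76. Their juvenile to umbonal differences spanned only 3.53 to 3.59. All 8 were called higher in D-shaped larvae than in trochophores, by 2.98 to 3.83, none was called at the next transition, and none was tested in trochophores against eggs, where too few arrays were well above background.

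All 7 probes of AB244419.1 to AB244425.1 and all 7 of EU177505.1 to EU177511.1 were also highest in juveniles, with median juvenile to umbonal differences of 10.02 and 9.82. In the run DQ104255.1 to DQ104262.1, 7 of 8 were highest in juveniles, with differences between 0.31 and 9.45. In AB023249.1 to AB023254.1 it was 5 of 6, with differences between 3.16 and 4.70, none of them called higher at any earlier transition. In AB734766.1 to AB734776.1, which holds the probe with the largest margin, 7 of 11 were highest in juveniles, and the juvenile arrays lay above all 12 earlier ones in all 7. Their differences ran between 0.16 and 11.29 with a median of 6.39, and their earlier courses diverged, with 3 called higher and 1 lower in trochophores and 1 higher and 3 lower in umbonal larvae. In EF426101.1 to EF426117.1, 5 of 17 were highest in juveniles. Of the 36 probes JU319521.1 to JU319556.1, 9 were highest in juveniles, of the 26 probes EU075148.1 to EU075173.1, 4, and of the 5 probes AB684317.1 to AB684321.1, none, all 5 being highest in eggs.

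The run AB735586.1 to AB735602.1 showed how the rule can divide probes that have a rise at the D-shaped stage in common. Of its 17 probes 7 were highest in juveniles, and the other 10 were highest in the D-shaped stage (7) or the umbonal stage (3). All 17 were called higher in D-shaped larvae than in trochophores, by 1.13 to 7.46, and none was called in umbonal against D-shaped larvae. In trochophores against eggs they differed, with 8 called higher and 1 lower of 15 tested. Juvenile to umbonal differences ran between -1.67 and 1.37 over the run. The median over the 17 was 14.02, 14.14 and 14.37 on the D-shaped arrays, 14.41, 14.40 and 14.21 on the umbonal arrays and 14.64, 14.66 and 14.77 on the juvenile arrays. Among the 7, only 1 of the 7, AB735586.1 with a margin of 0.90, had a margin above 0.4.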

How the data were processed

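Per the file headers, the authors' scanner software (Agilent Feature Extraction 11.5.1.1) gave each spot a background-corrected processed signal, and the deposited values used here are these intensity values on a linear scale, before normalization between arrays. Control spots were left out. Flagged outlier spots (17 to 56 per array) were left out of the quantile-normalized levels, unless every spot of a probe was flagged. For these levels the spots of a probe were averaged on the linear scale and values under 1 were set to 1. Their log2 values were then quantile-normalized, the normalization the study's methods name. The choice of the probes, on the 75th-percentile scale, kept flagged spots and averaged the log2 values of the spots. Stages were compared with limma 3.58.1 (R 4.3.3), fitted to all 15 arrays without a block, with Benjamini-Hochberg adjustment over all probes tested, after a test on simulated data. The resampling statistic of the methods was not run.

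The probes, lists and runs were chosen with earlier results of these data known. Probes were named by rule: the 10 largest and 5 smallest margins, the 5 nearest outside, the 5 highest juvenile means, and the 4 largest called rises and falls at each earlier transition. Alternatives covered scaling, background correction, the filter on dim probes, the slide, the arrays fitted and leaving out single arrays; fits within 1 slide and a count without egg replicate 3 were added after seeing the data. The series' table of processed values holds none of the 300 probes and was not used.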

Additional observations from a re-analysis of the deposited data

How the results depend on the processing

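The calls at the earlier transitions depended most on the filter on dim probes. In trochophores against eggs 30 of the probes were called, 52 with no filter (28 higher, 24 lower) and 7 (3 higher, 4 lower) where all 6 arrays had to be well above background. In D-shaped larvae against trochophores 47 were called, and 19 (13 higher, 6 lower) under that stricter filter, which tested fewer probes. In umbonal against D-shaped larvae 32 were called and 21 after normexp correction, the cause of which was not tested. With single arrays left out the counts ran between 27 and 34, 46 and 49, and 26 and 38 for the 3 transitions in order. The lowest and highest number of probes chosen were 118 and 125, without juvenile replicates 3 and 1, and the median juvenile to umbonal difference ran between 3.43 and 3.63. That median was 3.15 on the 75th-percentile scale, 3.03 after spike-in scaling and 2.52 after normexp. The number chosen was 140 on the quantile scale, 138 after spike-in scaling and 82 with a margin of at least 1. Probes well above background on no earlier array numbered 18, not 8, where 2 of 3 arrays of a stage were needed, and 6 where a single spot sufficed. Spike-in scaling moved the median log2 change of all probes tested from -0.07, -0.16 and -0.06 to 0.40, 0.42 and 0.33 at the 3 transitions, with splits of 30 higher and 4 lower, 45 and 7, and 29 and 6 among the 123; the slide as a block gave 19 and 5 in umbonal against D-shaped larvae. A replicate block left the counts at 30, 47 and 32. Equal replicate numbers did not pair the samples, their deviations correlating between -0.20 and 0.10 over 12 stage pairs. Over the named probes' calls, 644 alternative values kept the direction and the side of the threshold, and 61 lost the call, 23 of them under the stricter filter. The detection flag limits what can be said of dim stages: in eggs 46 of the 123 probes, and in trochophores 51, were well above background on no array.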
